A study of Homo sapiens with 15 samples.

Results

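The BEX (brain expressed X-linked) genes BEX1, BEX2, BEX3, BEX4 and BEX5 were followed across 15 Affymetrix expression arrays of a pair of human ovarian cancer cell lines. The members were found by their gene symbols in the platform annotation, with BEX3 also accepted under its older symbol NGFRAP1. Each symbol had 1 probe set, so 5 probe sets stood for 5 of the 19775 genes measured. The family was picked because BEX1 differed widely between the lines in these same arrays, so the values of the lines are given below as a description, with no test. The tests of treated against untreated CP70 reuse the untreated CP70 arrays that entered this choice, so they are not independent of it.

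CP70 is a cisplatin-resistant derivative of the A2780 line, and all drug treatment was done in CP70. The first group received decitabine at 0.1 µM for 48 h, with PXD101 at 0.1 µM present for the last 24 h. The second received decitabine alone at 0.1 µM for 48 h, and the third received PXD101 alone at 0.1 µM for 48 h. The harvest followed drug removal by 96 h, and the remaining groups were untreated CP70 and untreated A2780. Each group had 3 arrays, described in the series' design text as biological triplicates. No vehicle-treated group was among the arrays, and the exposure to PXD101 was 48 h alone but 24 h in the combination. Decitabine is a cytidine analog that is built into DNA and depletes DNA methyltransferases, and PXD101 (belinostat) inhibits histone deacetylases.

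BEX proteins are small, largely unstructured adaptor proteins encoded in a cluster on the long arm of the X chromosome. They were named for their abundance in brain. BEX1 and BEX3 bind the intracellular part of the neurotrophin receptor NGFR, and BEX3 was described as a mediator of cell death through it. BEX2 was found in complexes with the transcription factor LMO2, and BEX4 associates with microtubules. BEX1 and BEX2 have been described as silenced by promoter methylation in glioma.

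A level is the deposited log2 signal of the gene's probe set, and a change is the difference of group means on that scale. A change of 1 log2 is 2-fold. The deposited values ran from 2.39 to 14.52, and their lower quartile over genes and arrays was 4.34, which is given as a guide to weak signals because the table holds no detection calls. Levels of different probe sets are not compared with each other. Whether the arrays of 2 groups overlapped is given as a description, because the share of all genes without overlap is not given. The array medians lay between 5.00 and 5.06. Arrays of 1 group correlated across genes at 0.993 to 0.997 outside untreated CP70, where the lowest correlation was 0.983. Replicate 2 of untreated CP70 stood apart, with correlations of 0.995 to 0.997 with the PXD101 arrays against 0.983 to 0.986 with the other CP70 replicates. Its label was taken as given, and whether the label is right was not tested. BEX calls that changed without this array are given both ways. BEX changes that moved without replicates 1 and 3, which leaves 1 untreated array, are also given. Calls of other genes against untreated CP70 rest on all arrays.

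To describe the cells, 8 markers of epithelial ovarian cancer were read. Of these, 6 lay at or above the lower quartile in every group, and WT1 and MUC16 lay below it in every group. By definition most gene values lie above a lower quartile, so such counts do not identify the cells. The summed log2 signal of the 8 markers was 54.78 to 55.37 with both drugs, 53.70 to 55.25 with decitabine, 47.95 to 48.79 with PXD101, 48.68 to 49.47 in untreated CP70 and 44.96 to 46.72 in A2780. With decitabine 4 of the 8 rose, EPCAM, KRT8, KRT18 and KRT19, against 4.87% of all genes. They also rose with both drugs, against 6.17% of all genes. The part of this shift in the BEX changes was not tested. Of 4 measured leukocyte markers, PTPRC and LYZ lay below the lower quartile in every group, CD14 lay above it with both drugs and below it otherwise, and CD3E lay above it in every group. Of 6 fibroblast and endothelial markers, 5 lay at or above the lower quartile in every group, among them the endothelial markers PECAM1 and VWF. The endothelial marker CDH5 lay below it in every group. In that list THY1 rose by 0.70 log2 with decitabine (limma adjusted p = 0.0136) and COL1A2 fell by 0.72 (limma adjusted p = 0.0452), and the summed signal was 36.20 to 36.60 with both drugs, 36.11 to 36.55 with decitabine, 36.58 to 37.18 with PXD101, 36.06 to 36.64 in untreated CP70 and 38.82 to 39.48 in A2780.

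The promoters are shown first because the DNA methyltransferases that decitabine depletes methylate cytosines in CpG dinucleotides. They are RefSeq windows on GRCh38.p14 that run from 250 bases before to 50 bases after an annotated transcription start, and capitals mark each CpG. RefSeq gives 1 window for BEX1, 1 for BEX2, 3 for BEX3, 2 for BEX4 and 2 for BEX5. For the members with several windows, the one shown had the highest identity with a window of another member.

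BEX1 promoter, chrX:103064122-103064421, minus strand: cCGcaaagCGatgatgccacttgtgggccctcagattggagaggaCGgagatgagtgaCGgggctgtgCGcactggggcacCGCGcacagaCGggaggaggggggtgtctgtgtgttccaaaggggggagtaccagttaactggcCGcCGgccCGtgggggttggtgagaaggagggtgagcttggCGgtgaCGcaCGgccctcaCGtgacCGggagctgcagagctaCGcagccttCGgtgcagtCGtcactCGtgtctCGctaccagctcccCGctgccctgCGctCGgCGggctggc
BEX2 promoter, chrX:103310941-103311240, minus strand: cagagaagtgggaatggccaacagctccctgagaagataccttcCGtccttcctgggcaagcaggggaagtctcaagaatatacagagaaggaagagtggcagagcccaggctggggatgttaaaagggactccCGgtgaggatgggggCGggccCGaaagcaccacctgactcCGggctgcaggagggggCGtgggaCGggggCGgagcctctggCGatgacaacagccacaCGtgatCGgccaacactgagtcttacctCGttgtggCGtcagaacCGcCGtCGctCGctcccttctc
BEX3 promoter, chrX:103376288-103376587, plus strand: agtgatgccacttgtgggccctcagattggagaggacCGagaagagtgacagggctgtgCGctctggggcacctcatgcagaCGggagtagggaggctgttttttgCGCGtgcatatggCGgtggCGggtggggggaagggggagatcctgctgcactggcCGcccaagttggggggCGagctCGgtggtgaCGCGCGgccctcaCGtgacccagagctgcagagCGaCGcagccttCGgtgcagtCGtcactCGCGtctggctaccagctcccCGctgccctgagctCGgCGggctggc
BEX4 promoter, chrX:103214858-103215157, plus strand: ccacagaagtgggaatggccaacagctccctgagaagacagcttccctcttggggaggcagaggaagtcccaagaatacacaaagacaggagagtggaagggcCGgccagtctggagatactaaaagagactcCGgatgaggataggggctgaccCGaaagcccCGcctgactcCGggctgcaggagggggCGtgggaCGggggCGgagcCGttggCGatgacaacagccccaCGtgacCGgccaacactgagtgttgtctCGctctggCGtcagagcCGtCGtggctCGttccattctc
BEX5 promoter, chrX:102155928-102156227, minus strand: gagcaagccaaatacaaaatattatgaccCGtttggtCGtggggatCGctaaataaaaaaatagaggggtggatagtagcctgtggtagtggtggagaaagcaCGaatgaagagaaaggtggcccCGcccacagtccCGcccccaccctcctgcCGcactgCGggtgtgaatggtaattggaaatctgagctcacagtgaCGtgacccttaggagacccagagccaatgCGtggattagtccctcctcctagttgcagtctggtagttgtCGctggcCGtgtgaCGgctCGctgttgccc

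The BEX1 window held 25 CpGs in 300 bases with a GC content of 67.0%. The windows shown held 17 CpGs for BEX2, 23 for BEX3, 17 for BEX4 and 14 for BEX5. The other windows held 7 and 32 CpGs for BEX3, 16 for BEX4 and 13 for BEX5. Across 35116 promoter windows of the same length the median was 14 CpGs, and 32.0% of them held at least as many as BEX1. No DNA methylation values were used here, so the windows describe sequence and not its state.

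Alignment put the BEX promoters into 2 sister pairs. With gaps counted as differences, BEX4 and BEX2 were identical at 84.3% of alignment positions, and BEX3 and BEX1 at 73.8%. The other 8 pairs, each taken at its best windows, lay between 52.1% and 53.6%. The following stretches show the E-box (CACGTG, searched on both strands) with 12 bases on either side, because 4 members share it close to their start. Capitals mark the E-box.

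BEX1 E-box, chrX:103064201-103064230, minus strand: acgcacggccctCACGTGaccgggagctgc
BEX2 E-box, chrX:103310992-103311021, minus strand: tgacaacagccaCACGTGatcggccaacac
BEX3 E-box, chrX:103376479-103376508, plus strand: acgcgcggccctCACGTGacccagagctgc
BEX4 E-box, chrX:103215077-103215106, plus strand: tgacaacagcccCACGTGaccggccaacac

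The E-box began 47 bases before the start in BEX1 and BEX3 and 19 bases before it in BEX2 and BEX4, and in the other BEX4 window, whose start lies further upstream, it began 3 bases before the start. No BEX5 window held it. It occurred in 7.26% of all promoter windows. The longer word CACGTGAC, which overlaps the E-box and was chosen after the sequences had been seen, occurred in BEX1, BEX3 and BEX4 and in 2.4% of all windows. The GC box GGGCGG occurred in windows of BEX2, BEX3, BEX4 and BEX5 and in 44.95% of all windows. CCAAT occurred in windows of BEX1, BEX3 and BEX5 and in 34.61% of all windows. The TATA box TATAAA occurred in 0 of the 9 BEX windows and in 11.53% of all windows. These matches are descriptions of letters and not of binding.

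BEX1 and BEX4 were far lower in untreated CP70 than in A2780, BEX2 was higher in CP70, and BEX3 and BEX5 differed little between the lines. The BEX1 probe set (218332_at, Entrez 55859) read 5.30, 5.10 and 5.66 log2 in untreated CP70, against 12.54, 12.61 and 12.83 in A2780. The lines did not overlap, and the mean in CP70 was 5.35 ± 0.28 against 12.66 ± 0.15 in A2780 (SD, n = 3 each). This is a difference of -7.30 ± 0.15 log2 (SE), or 158-fold lower in CP70.

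BEX4 (215440_s_at, Entrez 56271) read 3.98, 3.81 and 3.50 log2 in untreated CP70, against 9.30, 9.32 and 9.62 in A2780. Every CP70 array lay below the lower quartile, and the difference was -5.65 ± 0.22 log2, or 50.3-fold lower in CP70. At such weak signal the size of a fold depends on the low end of the array's scale, which holds for every BEX4 and BEX5 fold against untreated CP70 or PXD101 and for BEX5 against A2780. BEX2 (224367_at, Entrez 84707) read 11.97, 9.93 and 11.73 log2 in untreated CP70, against 8.10, 8.48 and 8.94 in A2780. BEX2 thus ran the opposite way, 2.71 ± 0.42 log2 or 6.53-fold higher in CP70, with no overlap, although CP70 replicate 2 was closer to A2780 than the other CP70 arrays were. The difference of BEX2 was 3.35 log2 without CP70 replicate 2 and 1.43 without replicates 1 and 3.

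BEX3 (217963_s_at, Entrez 27018) was high in every array, at 12.27, 12.85 and 12.46 log2 in untreated CP70, against 12.96, 12.94 and 13.06 in A2780. The lines did not overlap, but its difference was only -0.46 ± 0.12 log2, or 1.38-fold lower in CP70, and it was -0.62 without CP70 replicate 2 and -0.14 without replicates 1 and 3. BEX5 (229963_at, Entrez 340542) read 3.48, 3.28 and 3.59 log2 in untreated CP70, against 3.28, 3.92 and 3.69 in A2780. Its groups overlapped, all 6 arrays lay below the lower quartile, and the difference was -0.18 ± 0.15 log2.

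By size, 3 of the 5 members differed by at least 2-fold between the lines, 1 higher and 2 lower in CP70, and 9.76% of all genes did. Because this contrast drew attention to the family, nothing is read from that count. Probe sets whose names end in _s_at, those of BEX3 and BEX4, can match several transcripts, and near-identical stretches of BEX1 and BEX2 could share signal. The opposite directions of BEX1 and BEX2 show that their probe sets did not read the same transcript alone.

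**Figure D1:**
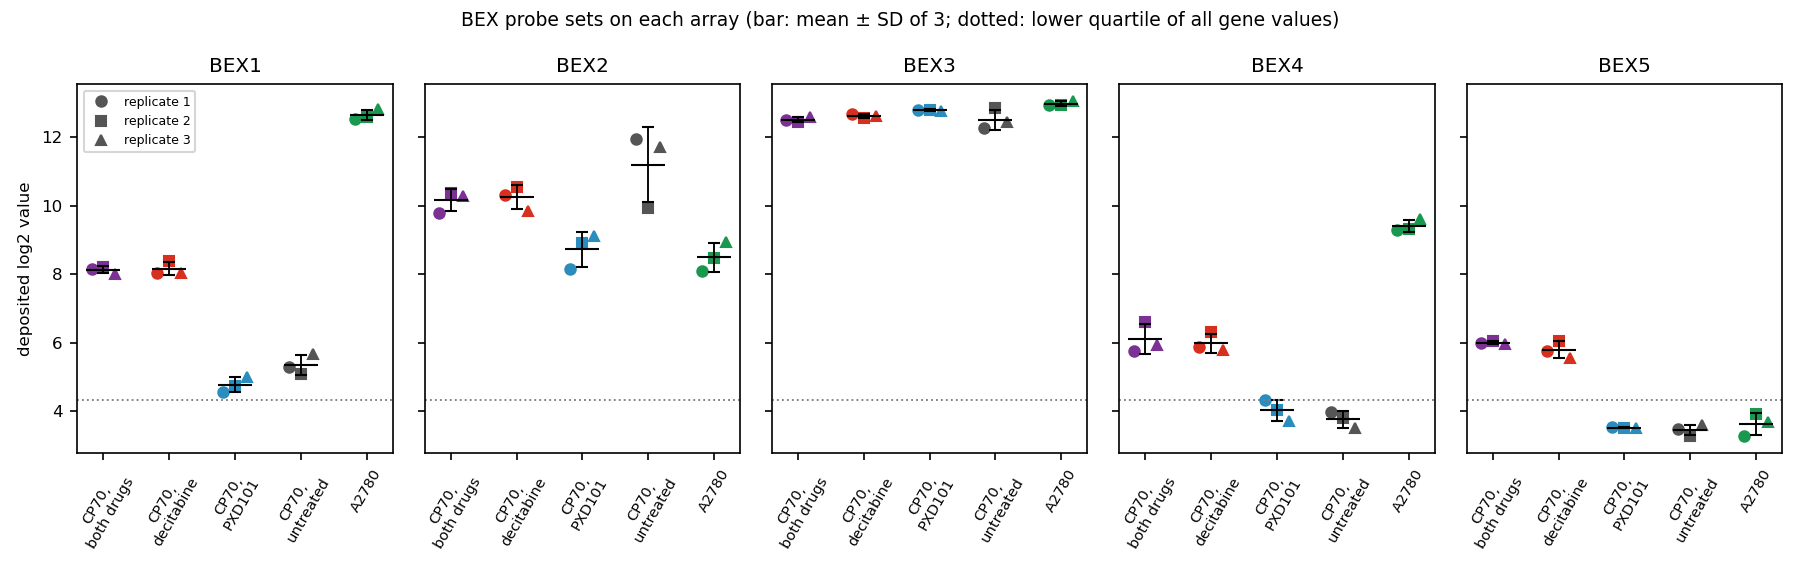
Levels of the 5 BEX genes (deposited log2 signal, vertical axis) in each array, grouped by treatment, with points for arrays bars for the mean and SD of 3 arrays, and a dotted line at the lower quartile of 4.34. BEX1 sits at 8.16 after decitabine, 5.35 in untreated CP70 and 12.66 in A2780, BEX4 at 5.99, 3.76 and 9.41, and BEX5 is above the dotted line only in the groups with decitabine.

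Decitabine raised BEX1, BEX4 and BEX5 in CP70, each by 4 to 7-fold, and left BEX2 and BEX3 without a called change. BEX1 read 8.05, 8.38 and 8.05 log2 with decitabine, against 5.30, 5.10 and 5.66 in untreated CP70. The groups did not overlap, and BEX1 rose by 2.80 ± 0.15 log2, or 6.98-fold (SE, n = 3 each, limma adjusted p = 1.09e-08). BEX4 read 5.89, 6.31 and 5.79 log2 with decitabine, against 3.98, 3.81 and 3.50 in untreated CP70. It rose by 2.23 ± 0.22 log2, or 4.70-fold (limma adjusted p = 1e-05), again with no overlap.

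BEX5, low in both untreated lines, read 5.75, 6.06 and 5.56 log2 with decitabine, against 3.48, 3.28 and 3.59 in untreated CP70. It rose by 2.34 ± 0.15 log2, or 5.07-fold (limma adjusted p = 8.42e-08), a size that starts from weak signal, and every decitabine array lay above every untreated array. Since the arrays measured bulk RNA, more RNA per cell and more cells with the RNA cannot be told apart. BEX2 read 10.33, 10.55 and 9.86 log2 with decitabine, against 11.97, 9.93 and 11.73 in untreated CP70. The groups overlapped through CP70 replicate 2, and the change of -0.96 ± 0.42 log2 was not called (limma adjusted p = 0.19).

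BEX3 read 12.68, 12.57 and 12.63 log2 with decitabine, within the range of untreated CP70, and its change was 0.10 ± 0.12 log2 with a 95% interval of -0.15 to 0.35 (limma adjusted p = 0.656). In all, 3 of the 5 members rose and 0 fell, while limma called 8.01% of all genes, 4.87% higher and 3.14% lower. With p unadjusted, 4 members lay under 0.05, the added one being BEX2 in the downward direction. No share of all genes is given for the unadjusted p. Rank product, which the series' design text names, also called 4 members, BEX1, BEX4 and BEX5 higher and BEX2 lower at a percentage of false positives of 4.1. Of all 19775 genes, rank product called 258 higher and 115 lower.

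The calls of BEX1, BEX4 and BEX5 held in every alternative that kept them in the fit, whereas BEX2 and BEX3 followed the untreated arrays. Without CP70 replicate 2, BEX2 fell by 1.60 log2 (limma adjusted p = 0.000917) and BEX3 rose by 0.27 (limma adjusted p = 0.0483). Without CP70 replicates 1 and 3 the change of BEX2 was 0.32 log2 (limma adjusted p = 0.76). With array weights, which count deviating arrays less, BEX2 fell by 1.35 log2 with decitabine (limma adjusted p = 0.000439) and by 1.48 with both drugs (limma adjusted p = 5.13e-05). The direction of BEX2 relative to untreated CP70 thus depended on which CP70 arrays were used.

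With both drugs the same 3 members rose. BEX1 read 8.17, 8.20 and 8.02 log2 with both drugs, against 5.30, 5.10 and 5.66 in untreated CP70, a rise of 2.78 ± 0.15 log2 or 6.85-fold (limma adjusted p = 9.78e-09). BEX4 read 5.77, 6.60 and 5.92 log2 with both drugs, and rose by 2.34 ± 0.22 log2 or 5.06-fold over untreated CP70 (limma adjusted p = 5.2e-06). BEX5 read 6.0, 6.04 and 5.95 log2 with both drugs, and rose by 2.55 ± 0.15 log2 or 5.85-fold (limma adjusted p = 2.64e-08). None of the 3 overlapped between the groups.

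BEX2 read 9.79, 10.39 and 10.29 log2 with both drugs, and its change against untreated CP70 was -1.05 ± 0.42 log2 (limma adjusted p = 0.136). As with decitabine alone, it fell by 1.69 log2 without CP70 replicate 2 (limma adjusted p = 0.000518) and changed by 0.23 without replicates 1 and 3 (limma adjusted p = 0.858). BEX3 read 12.51, 12.45 and 12.59 log2 with both drugs, a change of -0.01 ± 0.12 (limma adjusted p = 0.987). The count of 3 risers and 0 fallers stands beside 10.4% of all genes called, 6.17% higher and 4.22% lower. The contrasts of each treatment share the untreated CP70 arrays, so their counts are not separate evidence.

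**Figure D2:**
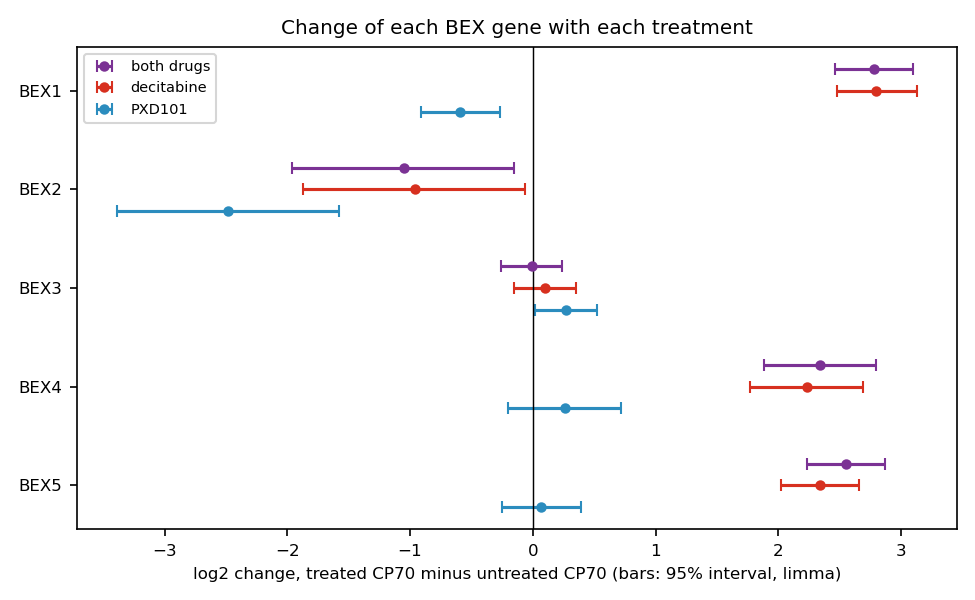
Change of each BEX gene (log2, horizontal axis) with both drugs, decitabine and PXD101 against untreated CP70, with points for the difference of group means and bars for the 95% confidence interval. BEX1, BEX4 and BEX5 lie between 2.23 and 2.80 with decitabine or both drugs, BEX3 lies near 0, and BEX2 has the widest intervals.

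PXD101 alone raised no member, and the 2 falls that were called, in BEX1 and BEX2, rested on few arrays. BEX2 read 8.15, 8.91 and 9.12 log2 with PXD101, against 11.97, 9.93 and 11.73 in untreated CP70. The groups did not overlap, and BEX2 fell by 2.48 ± 0.42 log2, or 5.59-fold (limma adjusted p = 0.0205). BEX1 read 4.56, 4.74 and 5.00 log2 with PXD101, against 5.30, 5.10 and 5.66 in untreated CP70, and fell by 0.59 ± 0.15 log2, or 1.5-fold (limma adjusted p = 0.0301), also with no overlap.

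BEX4 read 4.33, 4.02 and 3.72 log2 with PXD101, against 3.98, 3.81 and 3.50 in untreated CP70, and the groups overlapped. Its change of 0.26 ± 0.22 log2 had an interval of -0.20 to 0.72 (limma adjusted p = 0.486). BEX5 read 3.54, 3.50 and 3.50 log2 with PXD101, within the untreated range, and its change was 0.07 ± 0.15 (limma adjusted p = 0.83). BEX3 read 12.81, 12.81 and 12.76 log2 with PXD101, with a change of 0.27 ± 0.12 (limma adjusted p = 0.148), and CP70 replicate 2 was the untreated array that reached this level.

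The 2 members called with PXD101 compare with 10.7% of all genes, 5.57% higher and 5.15% lower. Rank product called only BEX2, and of all 19775 genes it called 132 higher and 228 lower. Leaving out 1 array at a time, the calls of BEX1 and BEX2 were both lost without CP70 replicate 1 or 3 and without PXD101 replicate 1, 2 or 3, with limma adjusted p of 0.0671 to 0.17 for BEX1 and 0.062 to 0.133 for BEX2. Without CP70 replicate 2, BEX2 fell by 3.12 log2 (limma adjusted p = 2.25e-06), BEX1 fell by 0.71 (limma adjusted p = 0.00203) and BEX3 rose by 0.43 (limma adjusted p = 0.00208). Without CP70 replicates 1 and 3 no member was called, with BEX2 at -1.20 (limma adjusted p = 0.967) and BEX1 at -0.33 (limma adjusted p = 1). The gap between the 3' and 5' probe sets of beta-actin, a sign of RNA quality, also separated these groups, at 0.38 to 0.51 log2 with PXD101 and 0.63 to 0.86 in untreated CP70, and its part in these changes was not tested. It was 0.42 to 0.49 with both drugs, 0.34 to 0.79 with decitabine and 0.34 to 0.38 in A2780, so it also moved with the both-drug and line contrasts.

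**Figure D3:**
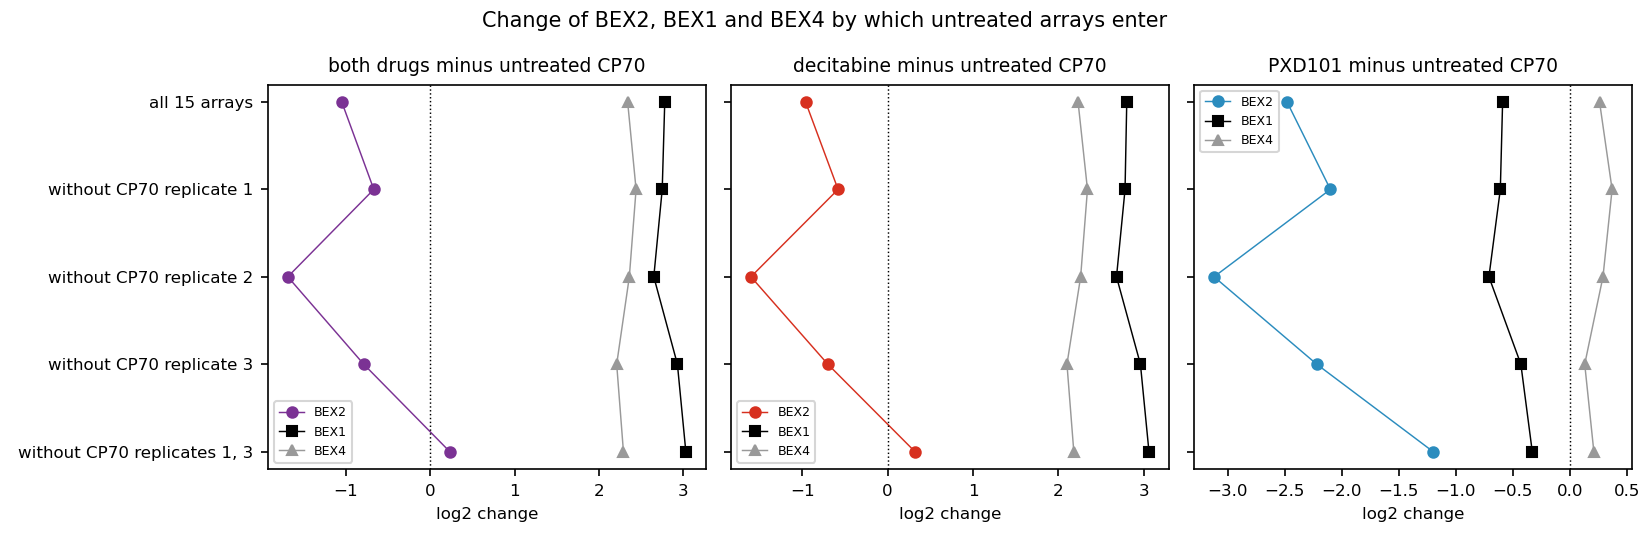
Change of BEX2, BEX1 and BEX4 (log2, horizontal axes) against untreated CP70 for the 3 treatments, with a row for all 15 arrays, for each untreated replicate left out, and for replicates 1 and 3 left out. BEX1 and BEX4 stay near their values with decitabine or both drugs, while BEX2 with decitabine lies at -0.96 with all arrays, -1.60 without replicate 2 and 0.32 without replicates 1 and 3.

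The treated groups were also compared with one another. These contrasts use no mean of untreated CP70, but their SE comes from the fit of all 15 arrays and so includes its spread. Between both drugs and decitabine alone, limma called 0 of the 5 members, as against 0.0101% of all genes, and rank product and the unadjusted p at 0.05 also gave 0. Of all genes, rank product called 17 higher and 1 lower with both drugs than with decitabine. The 95% interval of this difference was -0.35 to 0.29 log2 for BEX1, -0.35 to 0.57 for BEX4 and -0.11 to 0.53 for BEX5. It was -0.36 to 0.14 for BEX3 but -1.0 to 0.81 for BEX2, so an added change of up to about 2-fold in BEX2 could not be told from none.

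Against PXD101 alone, BEX1 was 3.36 ± 0.15 log2 or 10.3-fold higher with both drugs (limma adjusted p = 1.05e-09) and 3.39 ± 0.15 log2 or 10.5-fold higher with decitabine (limma adjusted p = 9.85e-10). BEX4 was 4.22-fold higher with both drugs (limma adjusted p = 1.72e-05) and 3.92-fold higher with decitabine (limma adjusted p = 3.58e-05). BEX5 was 5.58-fold higher with both drugs (limma adjusted p = 3.79e-08) and 4.84-fold higher with decitabine (limma adjusted p = 1.32e-07). The exposures to PXD101 differed between the combined and the PXD101 group, so the effect of adding decitabine and that of the shorter PXD101 exposure cannot be told apart there.

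BEX2, which had no called change with decitabine against untreated CP70, was higher than with PXD101 in both decitabine groups. It was 1.43 ± 0.42 log2 or 2.69-fold higher with both drugs (limma adjusted p = 0.0456), and 1.52 ± 0.42 log2 or 2.87-fold higher with decitabine (limma adjusted p = 0.0393). No array of BEX2 overlapped between these groups. The first call was lost without any 1 of its 6 arrays (limma adjusted p = 0.0539 to 0.181). The second was lost without any of them except decitabine replicate 3 (limma adjusted p = 0.0471 to 0.154). When only the 6 arrays compared were fitted, both calls held (limma adjusted p = 0.00641 with both drugs and 0.006 with decitabine), as they did with array weights (0.000836 and 0.000962), while median centring lost the first (0.0505). With BEX2, limma called 4 of the 5 members in each contrast, all higher, against 9.94% of all genes for both drugs (5.91% higher, 4.03% lower) and 8.15% for decitabine (4.9% higher, 3.26% lower).

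Averaged over the presence and absence of PXD101, decitabine raised BEX1 by 3.08 ± 0.11 log2 or 8.48-fold (limma adjusted p = 2.58e-11). On the same contrast BEX4 rose by 2.15 ± 0.15 or 4.45-fold (limma adjusted p = 1.49e-07) and BEX5 by 2.41 ± 0.11 or 5.32-fold (limma adjusted p = 4.37e-10). BEX2 was at 0.23 ± 0.30 (limma adjusted p = 0.707) and BEX3 at -0.09 ± 0.08 (limma adjusted p = 0.594). PXD101 was present for 24 h with decitabine but 48 h without it, and this difference also enters the average. The 3 risers compare with 13.8% of all genes called, 7.93% higher and 5.91% lower. Without CP70 replicates 1 and 3, which leaves 1 untreated array, BEX2 was at 0.87 and BEX3 at -0.25 on this contrast.

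The interaction of the drugs, which is the both-drug change less the sum of the single-drug changes, was 2.39 ± 0.60 log2 for BEX2, 0.56 ± 0.21 for BEX1 and -0.38 ± 0.17 for BEX3. None of the 5 members was called by limma (adjusted p = 0.191, 0.212 and 0.249 for these), against 0.0152% of all genes, although 3 had an unadjusted p under 0.05. Rank product was not computed for this contrast. Without CP70 replicate 2 all 3 were called, with BEX2 at 3.03 log2 (limma adjusted p = 0.000127), BEX1 at 0.69 (limma adjusted p = 0.0258) and BEX3 at -0.54 (limma adjusted p = 0.00586). No share of all genes is given for that fit or for the unadjusted p, so these counts are not read as results about the members. With all arrays BEX4 was at -0.16 and BEX5 at 0.14 log2. The exposure to PXD101 was 48 h alone but 24 h in the combination. An interaction of the drugs and the length of that exposure thus cannot be told apart in this contrast.

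The order of the group means differed from member to member. BEX1 averaged 8.13 ± 0.10 log2 with both drugs, 8.16 ± 0.19 with decitabine, 4.77 ± 0.22 with PXD101, 5.35 ± 0.28 in untreated CP70 and 12.66 ± 0.15 in A2780 (SD, n = 3 each), so PXD101 was lowest and A2780 highest. The both-drug and decitabine groups overlapped, and no other neighbours in this order did. The decitabine mean of BEX1 had covered 38.4% of the log2 gap between the lines, and the both-drug mean 38.0%, which left BEX1 22.6-fold below A2780 with decitabine and 23.1-fold below it with both drugs.

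BEX4 averaged 6.10 ± 0.44 log2 with both drugs, 5.99 ± 0.28 with decitabine, 4.02 ± 0.30 with PXD101, 3.76 ± 0.24 in untreated CP70 and 9.41 ± 0.18 in A2780, so untreated CP70 was lowest and A2780 highest. PXD101 and untreated CP70 overlapped, as did both drugs and decitabine. The CP70 end of this gap is set by weak signal, so the share of it that was covered is not given, and BEX4 remained 10.7-fold below A2780 with decitabine and 9.94-fold below it with both drugs.

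BEX5 had no gap to close and ended above both untreated lines. It averaged 6.0 ± 0.04 log2 with both drugs, 5.79 ± 0.25 with decitabine, 3.52 ± 0.02 with PXD101, 3.45 ± 0.15 in untreated CP70 and 3.63 ± 0.32 in A2780. The 3 groups without decitabine overlapped, and so did both drugs and decitabine. The decitabine groups lay 4.46-fold above A2780 with decitabine and 5.15-fold above it with both drugs. BEX2 averaged 10.16 ± 0.32 log2 with both drugs, 10.25 ± 0.35 with decitabine, 8.73 ± 0.51 with PXD101, 11.21 ± 1.11 in untreated CP70 and 8.50 ± 0.42 in A2780, so A2780 was lowest and untreated CP70 highest. PXD101 overlapped with A2780, and both decitabine groups overlapped with each other and with untreated CP70. The 5 group means of BEX3 spanned 0.47 log2, against 7.89 for BEX1, 5.65 for BEX4, 2.71 for BEX2 and 2.55 for BEX5.

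Over the 15 arrays, which share their groups, BEX1 and BEX4 followed each other with a Pearson correlation of 0.984, although their promoter windows were identical at 52.4% of alignment positions. BEX2 and BEX4, the pair with the most similar promoters, correlated at -0.467. BEX1 and BEX2 correlated at -0.374, BEX2 and BEX3 at -0.856, BEX1 and BEX5 at 0.145, and BEX4 and BEX5 at 0.127. These values mix the 5 group levels with the spread within groups and carry no test. That spread was 1.11 log2 (SD) for BEX2 in untreated CP70.

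The genes most like each member were taken by the same correlation. The first for BEX1 was GLUL, which encodes glutamine synthetase, at 0.988, followed by BEX4, the imprinted gene MEST at 0.984, MFAP2, a microfibril protein, at 0.982 and PLBD1 at 0.982. GLUL, MEST and MFAP2 were also among the 5 most like BEX4, at 0.989, 0.983 and 0.979. MEST averaged 6.91 log2 with both drugs, 6.71 with decitabine, 4.18 with PXD101, 4.16 in untreated CP70 and 13.29 in A2780, the same order of lines and drugs as BEX4.

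BEX5 was most like genes of another kind. Its 5 nearest were MAGEC2 at 0.992, MAGEA12 at 0.992, HORMAD1 at 0.991, PAGE1 at 0.991 and MAGEA11 at 0.991, which are cancer-testis genes normally expressed in germ cells. MAGEA12 averaged 9.69 log2 with both drugs, 9.56 with decitabine, 3.58 with PXD101, 3.48 in untreated CP70 and 3.69 in A2780. The nearest genes to BEX2 were EIF1B at 0.984, the translation initiation factor EIF1 at 0.983, MAP1LC3B, an autophagosome protein, at 0.983, the kinase FYN at 0.982 and CCPG1 at 0.981. FYN averaged 7.37 log2 with both drugs, 7.32 with decitabine, 6.27 with PXD101, 8.15 in untreated CP70 and 5.79 in A2780. BEX3 varied too little to be matched, since its group means spanned less than 1 log2.

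The members lie on the X chromosome in the order BEX5, BEX1, BEX4, BEX2 and BEX3, interleaved with TCEAL, ARMCX and GPRASP genes. Of 36 protein-coding neighbours, 24 were measured. Between the lines, 5 neighbours were at least 2-fold higher and 2 were at least 2-fold lower in CP70, against 5.15% and 4.61% of all genes. BEX4, at -5.65 log2, lies next to TCEAL8, a nuclear protein related to transcription elongation factors, which differed the other way, with means of 9.21 log2 in CP70 and 3.25 in A2780 (5.96). BEX1, at -7.30, lies between RAB40AL at -0.11 and NXF3 at 0.23, neither of which reached 2-fold. Both of these neighbours lay below the lower quartile in both lines, where a fall could hardly be seen.

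With decitabine, 6 of the 24 measured neighbours rose and 3 fell, against 4.87% and 3.14% of all genes, with a median change of 0.04 against 0.02 log2 over all genes. The 6 risers in the contrast averaged over PXD101 were ARMCX2 at 6.60, ARMCX3 at 2.68, ARMCX1 at 1.25, TCEAL7 at 0.96, NXF3 at 0.80 and TCEAL2 at 0.75 log2. All of them except ARMCX3 had means below the lower quartile in untreated CP70, so their sizes start from weak signal. TCEAL8, between BEX4 and BEX2, was at -0.08, and TCEAL9, next to BEX3, at -0.04. ARMCX2, which encodes an armadillo-repeat protein, averaged 10.50 log2 with both drugs, 10.36 with decitabine, 4.02 with PXD101, 3.64 in untreated CP70 and 10.39 in A2780, so its decitabine and A2780 means lay close together, which those of BEX1 and BEX4 did not.

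**Figure D4:**
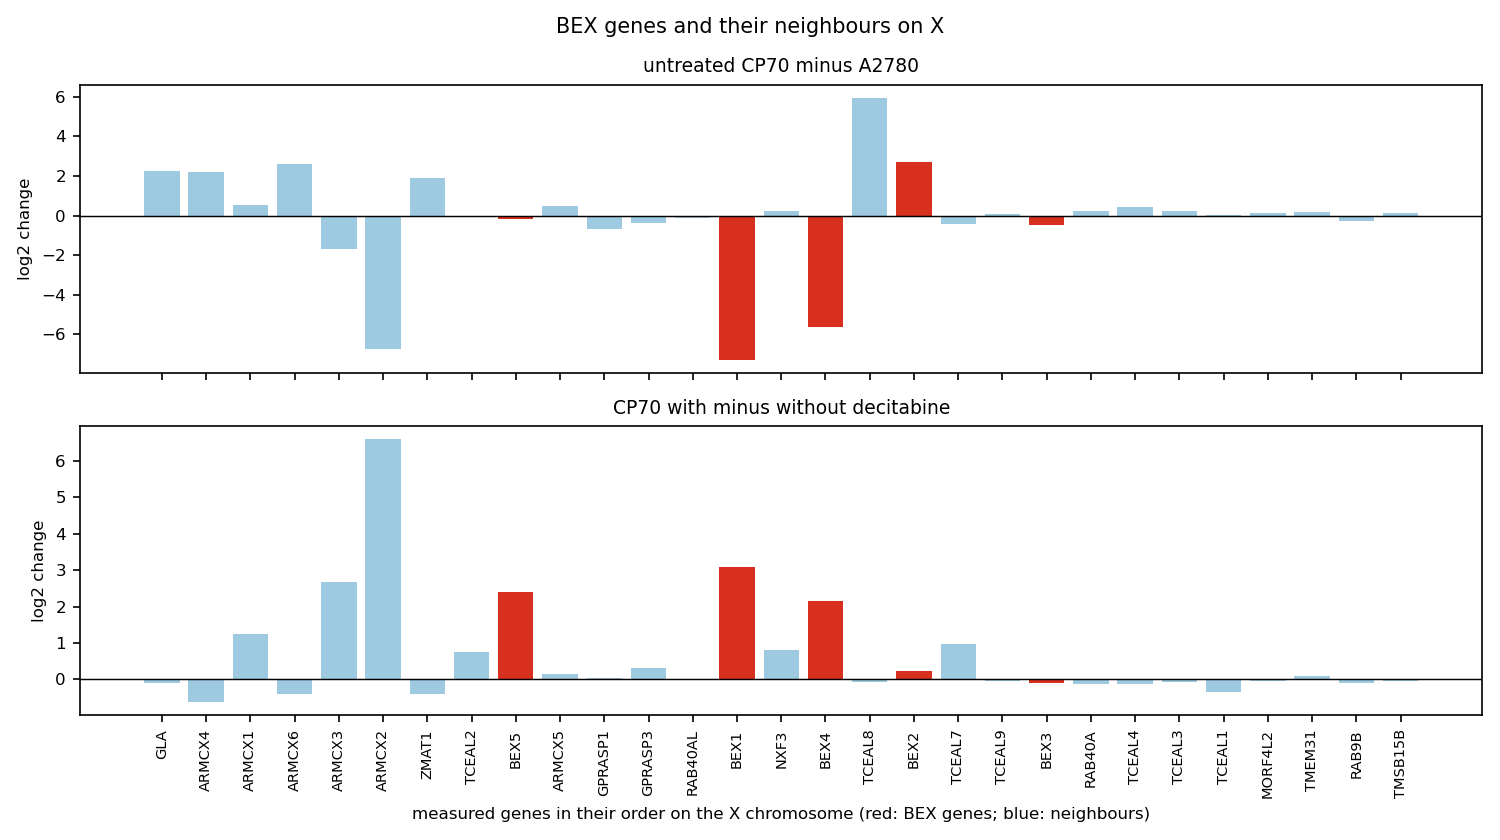
Line difference (CP70 minus A2780) and decitabine effect in CP70 (both log2, vertical axes) of the BEX genes and their measured neighbours, placed by gene order on the X chromosome. In the upper panel BEX1 and BEX4 reach -7.30 and -5.65 beside TCEAL8 at 5.96, and in the lower panel BEX1, BEX4 and BEX5 stand between 2.15 and 3.08.

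By family, 2 of the 7 measured TCEAL genes rose with decitabine and 1 fell, against 4.87% and 3.14% of all genes, with a median change of -0.13 log2. TCEAL2 rose by 0.96 (limma adjusted p = 0.0012) and TCEAL7 by 0.73 (limma adjusted p = 0.0244), while TCEAL1 fell by 0.34 (limma adjusted p = 0.0415). The mean of TCEAL2 lay below the lower quartile in untreated CP70, and that of TCEAL7 also with decitabine, so both rises start from weak signal. Of 8 measured ARMCX and GPRASP genes, 3 rose and 2 fell, with a median of 0.19. The falls were ARMCX4 at -0.61 and ARMCX6 at -0.54 log2. Both-drug treatment gave 2 rises and 1 fall among TCEAL genes and 3 rises and 2 falls among ARMCX and GPRASP genes. Of all genes, 6.17% rose and 4.22% fell with both drugs. The measured genes of these families are all among the neighbours counted above, so their counts are not separate evidence.

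The neurotrophin receptor pathway and other binding partners of BEX proteins made a list of 23 genes, of which 18 were measured. With decitabine 1 rose and 2 fell, against 4.87% and 3.14% of all genes, and the median change was 0.03 against 0.02 log2 over all genes. NFKB1, a subunit of NF-kB, rose by 0.42 (limma adjusted p = 0.0462), YWHAE, a 14-3-3 adaptor that binds BEX3, fell by 0.44 (limma adjusted p = 0.0393), and TSC1, a negative regulator of mTOR, fell by 0.63 (limma adjusted p = 0.0241). With both drugs NFKB1 rose by 0.48 (limma adjusted p = 0.0203) and TSC1 fell by 0.58 (limma adjusted p = 0.0311). Of the ligands and receptors, NGFR itself averaged 5.30 log2 with both drugs, 5.47 with decitabine, 4.40 with PXD101, 5.45 in untreated CP70 and 4.79 in A2780.

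With PXD101, 1 of these 18 genes rose and 4 fell, against 5.57% and 5.15% of all genes, with a median of -0.07 log2. NGFR fell by 1.05 (limma adjusted p = 0.025) and its ligand BDNF by 0.60 (limma adjusted p = 0.0459), while MAGED1, an adaptor of NGFR, rose by 0.80 (limma adjusted p = 0.025). MAPK8, a stress kinase, fell by 0.48 (limma adjusted p = 0.0475) and TSC1 by 0.59 (limma adjusted p = 0.0348). These contrasts use the same untreated arrays as the BEX2 fall above.

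Since BEX genes are abundant in brain, 10 neuronal markers were read beside them. With decitabine 2 of the 10 rose, the neurofilament genes NEFL and NEFM, and 0 fell, against 4.87% and 3.14% of all genes. The median change was -0.02 log2. NEFL averaged 10.06 log2 with decitabine, 6.90 in untreated CP70 and 12.81 in A2780, and rose by 3.15 (limma adjusted p = 1.75e-08). NEFM averaged 6.58 log2 with decitabine, 3.69 in untreated CP70 and 3.54 in A2780, and rose by 2.89 (limma adjusted p = 5.92e-10). At or above the lower quartile lay 8 of the 10 with both drugs, 8 with decitabine, 7 with PXD101, 7 in untreated CP70 and 6 in A2780, TUBB3, ELAVL3, SYP, SNAP25 and GAP43 in every group. STMN2 and ELAVL4 lay below it in every group. The summed signal of the 10 markers was 62.69 to 63.03 log2 with both drugs, 62.01 to 64.00 with decitabine, 57.49 to 57.90 with PXD101, 55.93 to 58.00 in untreated CP70 and 61.26 to 62.96 in A2780. Like BEX1 and BEX4, this sum was lower in untreated CP70 and with PXD101 than in the other groups. Unlike them, it was not higher in A2780 than with decitabine. Few markers made this pattern, since only NEFL and NEFM were called with decitabine. Between the lines NEFL differed by -5.90 log2 and MAP2 by 1.02, and the median difference of the list was -0.01. The part of the sum in the BEX1 and BEX4 changes was not tested.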

How the data were processed

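RNA of 15 samples was measured on 1-colour Affymetrix arrays after amplification with the WT-Ovation Pico system, per the labels' protocols. The authors deposited 1 table of log2 values for 54675 probe sets, a scale inferred from their range. R 2.10.1 with affy was used, per the submitters' processing notes. How background correction, normalization and probe summarization were done is not given in the sources used here. Arrays give no counts or depth, so precision is limited by their number.

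Probe sets were named from the platform annotation, updated through Entrez IDs to RefSeq symbols. Of all probe sets, 41097 had 1 symbol, 1801 several and 11777 none, and 41043 matched by Entrez ID. The 62 controls were left out, and each gene kept its probe set with the highest mean, which gave 19775 genes. Contrasts were fitted with limma 3.58.1 (lmFit, eBayes) in R 4.3.3 on group means of all 15 arrays, with calls at an adjusted p under 0.05 (Benjamini-Hochberg, over all genes). Rank product used 9 pairwise differences and 100 permutations at 5% false positives (Python 3.11.15, numpy 2.4.6). Both procedures were tested on simulated data. Promoter windows were searched with Biopython 1.88 and aligned globally in pairs. For each member whose group means spanned at least 1 log2, the 5 genes with the highest correlation were named, and from each list the genes called with decitabine, with other called members of short lists named after their values were seen.

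The members, the gene lists and the tests were chosen with earlier results of these data known. Alternatives left out each array, fitted a replicate block, fitted only the arrays compared, used genes above the median level, array weights or other scalings, and left out CP70 replicates 1 and 3.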

Additional observations from a re-analysis of the deposited data

How the results depend on the processing

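The rises of BEX1, BEX4 and BEX5 with decitabine kept their direction and call in all alternatives run in which they were fitted, with changes of 2.59 to 3.06, 2.08 to 2.49 and 2.21 to 2.51 log2 against untreated CP70. Restricting the fit to genes above the median level removed BEX4 and BEX5, so that 1 member was called for decitabine, for both drugs and for the averaged decitabine effect, and 2 for each contrast with PXD101. The PXD101 contrast with untreated CP70 was the least stable, with 0 members when only the arrays compared were fitted, 0 without CP70 replicates 1 and 3, 1 by rank product, and 0 to 3 when leaving out 1 array. Leaving out 1 array gave 3 to 5 members for decitabine and 0 to 3 for the interaction. Array weights gave 3 for the interaction, 4 for decitabine, 4 for both drugs (BEX2 lower in each) and 3 for PXD101, where BEX3 was added (0.34 log2, limma adjusted p = 0.001). No share of all genes is given for these alternatives, so their counts are not read as results about the members. Without CP70 replicates 1 and 3 the averaged decitabine effect was 0.87 log2 for BEX2 and -0.25 for BEX3. The cause of these moves was not tested beyond the arrays and genes removed. Same-numbered replicates did not deviate together in most pairs (correlations of -0.38 to 0.49 over 30 pairs, median 0.022), but 7 pairs exceeded 0.1. For replicates 1, 2 and 3 the correlations were 0.49, 0.065 and 0.117 between both drugs and PXD101. Between decitabine and PXD101 they were -0.38, 0.044 and -0.235. A replicate block gave 3 members against 4 in each contrast with PXD101, where BEX2 was lost (limma adjusted p = 0.0661 for both drugs and 0.0596 for decitabine), and changed no other count. Median centring moved the median of all genes by -0.12 log2 for decitabine and -0.10 for both drugs, and the uncalled decitabine change of BEX3 became -0.02. No called change turned sign, but uncalled ones did: without CP70 replicates 1 and 3, BEX2 was at 0.32 log2 with decitabine and 0.23 with both drugs.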
